A study of Mus musculus with 24 samples.

Results

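Primary osteoblasts (OBs) from mouse parietal bone were sequenced in 24 libraries, and the comparison here set the 6 libraries numbered replicate 1 against the 18 libraries numbered replicates 2 to 4. The members were chosen by the replicate number in the sample labels, and the same 6 libraries carry another style of file naming. All 24 of the 24 libraries in the series entered the comparison, with 1 replicate 1 library and 3 others in each of 6 conditions. The conditions were wild type (WT) and heterozygous (Het) cultures taken 8, 14 and 21 days after seeding, and the labels give osteogenic differentiation as the treatment of every culture. Het cells carried 1 G610C allele of *Col1a2*, which encodes the pro-α2(I) chain of type I collagen. Each culture was started from cells pooled from several pups of the same genotype. The study's methods describe separate experiments with different litters, plating density, culture wells and oxygen level during expansion, but the labels do not say which replicate came from which experiment. Litter, cell preparation, culture conditions and library preparation therefore cannot be told apart in any difference between replicate 1 and the other replicates.

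Parietal OBs form bone directly from mesenchyme without a cartilage model. Early OBs express the transcription factors *Runx2* and *Sp7*, then lay down type I collagen, and later switch on mineralization and osteocyte genes. The cells released from a calvaria also include other lineages, among them suture and base cartilage cells, fibroblasts, endothelium, glia and macrophages, and cultured OBs adjust glycolysis and hypoxia-inducible factor (HIF) targets to the oxygen they receive. Bulk RNA cannot tell fewer cells of a type from less RNA per cell. The OB marker *Col1a1* was abundant in every library, with levels from 16700 to 168000 in the 24 libraries. A level is given throughout as counts per 1000 counts of a housekeeping scale, which is each library's geometric mean of *Sdha*, *Mrfap1*, *Actb* and *Actg1*. Levels are not corrected for gene length and are compared only within a gene or a fixed list.

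The replicate 1 libraries were the shallowest. Their total counts ran from 17140202 to 25825762, with a median of 23926750.5, and the other libraries held 28159342 to 59734231 counts, with a median of 51462304. The ranges did not overlap, so depth moved with the comparison in every condition. WT day 14 replicate 1 also stood apart with 2.49% of its counts in small noncoding RNA, as did Het day 21 replicate 4 with 2.05%. *Rn7sk*, a small nuclear RNA, had a level of 41.8 in that WT day 14 library against at most 3.55 in the other 23. No pair of same-condition libraries agreed within counting noise, with chi-square per degree of freedom of 5.14 or more over 36 pairs.

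The gene class with the largest median difference was that of processed pseudogenes, which are retrocopies of messenger RNAs that were reinserted into the genome and share sequence with their parent genes. They took 0.34 to 0.457% of the counts in replicate 1 and 0.0895 to 0.126% in the other libraries, with no overlap. *Gm21399* (chr8:129252998-129253594, mm10) had levels of 13.1 in WT and 14.3 in Het replicate 1 at day 8, and the other 6 libraries of that day had 0.256 to 0.877 with a median of 0.586. Over all days the gene was higher in replicate 1 by 4.45 ± 0.148 on the log2 scale (SE, adjusted p = 1.63e-16, edgeR's quasi-likelihood test with the Benjamini-Hochberg adjustment). *Gm6789* (4.39), *Gm7809* (4.31) and *Rps24-ps3* (4.03) followed. Of 1340 processed pseudogenes tested, 1122 were higher and 14 lower, with a median log2 difference of 3.02. How reads that match several places were counted is not given in the sources used here, and the values of retrocopies and their parents are uncertain for that reason. The share of pseudogene counts was not tested against read length or any other property of the reads.

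**Figure D1:**
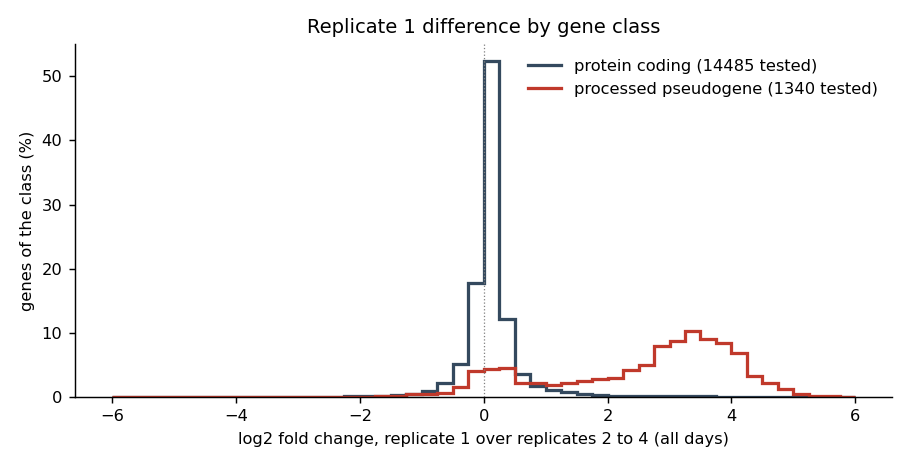
Distribution of the log2 difference between replicate 1 and replicates 2 to 4 over all days (x axis) as the percent of genes in each class (y axis), for 14485 protein coding genes and 1340 processed pseudogenes. Protein coding genes centred near 0 with a median of 0.11, and processed pseudogenes centred near a median of 3.02.

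A pair of mitochondrially encoded transcripts had the same pattern. *mt-Co2*, a subunit of cytochrome c oxidase, had levels of 11.1 and 10.2 in replicate 1 at day 8 against 1.13 to 1.68 in the others, and was higher over all days by 3.11 ± 0.12 (adjusted p = 1.92e-15). *mt-Atp6*, an ATP synthase subunit, was higher by 3.15 ± 0.227 (adjusted p = 1.31e-10). In total 7 of the 13 genes for mitochondrially encoded proteins were higher and 0 lower over all days, beside 32.9% higher and 6.83% lower of all genes tested, and 12 were higher without Het day 14 replicate 1. The mitochondrial chromosome as a whole took 1.03 to 1.75% of counts in replicate 1 and 0.792 to 1.6% in the others, which overlap. Nuclear copies of mitochondrial DNA share sequence with these genes.

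Among 20287 genes tested, 39.8% (8070) passed an adjusted p of 0.05 over all days, 32.9% (6684) being higher and 6.83% (1386) lower in replicate 1. In every 1 of the 6 conditions, replicate 1 lay above all other replicates for 11.2% (2275) and below all of them for 1.46% (297) of genes tested. At day 8 the test called 37.9% (7679), with 31.7% (6421) higher and 6.2% (1258) lower. At day 14 it called 20.5% (4161), with 15.8% (3209) higher and 4.69% (952) lower, and at day 21 it called 20.4% (4143), with 17.2% (3488) higher and 3.23% (655) lower. Among protein coding genes the difference also varied with the share of G and C bases (GC) in the longest transcript. Genes under 40% GC had medians of 0.33, -0.169 and 0.247 at days 8, 14 and 21. Those over 60% GC had 0.017, 0.07 and -0.039. Whether this moved the gene lists by day was not tested. The balance of higher and lower genes depended on the library scale. With TMM scaling, which assumes that most genes do not change, 3056 genes were higher and 3404 lower over all days, 2437 and 3229 at day 8, 2422 and 1976 at day 14, and 2051 and 1570 at day 21. The median of all genes moved from 0.111 on the housekeeping scale to -0.0327 on the TMM scale over all days, and from 0.184 to -0.0506 at day 8. Of the housekeeping genes themselves, *Mrfap1* was lower in replicate 1 by 0.342 on the log2 scale, with values of -0.342 ± 0.046, and *Sdha* was higher by 0.208 ± 0.0314, a call lost with TMM (adjusted p = 0.135) and DESeq2 size factors (adjusted p = 0.0708). Counts of calls also rested on single libraries: without Het day 8 replicate 1 the day 8 count was 2966, and without Het day 21 replicate 1 the day 21 count was 1521.

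Among the cell type lists, the chondrocyte list was the only list with every tested member called over all days. All 14 chondrocyte markers tested were higher in replicate 1 over all days and 0 were lower, with a median log2 difference of 1.86 against 0.111 for all genes. *Col2a1* (chr15:97975602-98004695, mm10), the main fibrillar collagen of cartilage, had levels of 30300 in WT and 29400 in Het replicate 1 at day 8, against 16700 to 21500 in the other WT and 4900 to 15000 in the other Het libraries. At day 14 it had 17600 and 19000 against 4860 to 10400 and 957 to 2080, and at day 21 it had 6810 and 6800 against 2620 to 4710 and 945 to 1080. Replicate 1 was the highest library in all 6 conditions, and the difference over all days was 2.04 ± 0.291 (adjusted p = 8.04e-06). Its level was lower at each later day in replicate 1 as in the others.

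The other cartilage matrix genes followed *Col2a1*. *Acan*, the large aggregating proteoglycan, was higher by 1.53 ± 0.274 (adjusted p = 0.000128), and *Col9a1*, a collagen that coats type II fibrils, by 1.99 ± 0.309 (adjusted p = 2.43e-05). *Snorc* (chr1:87470271-87475482, mm10), a chondrocyte membrane proteoglycan, had levels of 85.1 and 112 in replicate 1 at day 14 against 8.25 to 35 in the other WT and 0.365 to 1.53 in the other Het libraries, and was higher over all days by 3.61 ± 0.622 (adjusted p = 8.2e-05). The cartilage lectin *Clec3a* (2.81), the matrilins *Matn3* (2.19) and *Matn1* (3.24), and the leucine-rich cartilage protein *Chad* (1.83) were higher as well. *Sox9*, the transcription factor that sets the chondrocyte program, was higher by 0.617 ± 0.151 (adjusted p = 0.00256). *Col10a1*, the collagen of hypertrophic chondrocytes, had 139 and 282 in replicate 1 at day 14 against 44.3 to 87.5 and 7.66 to 10.6, and its difference over all days went from 1.93 to 1.05 without Het day 14 replicate 1. In WT libraries alone *Matn1* (adjusted p = 0.118) and *Sox9* (adjusted p = 0.155) did not pass the test.

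By day, 4 of the 14 chondrocyte markers were higher at day 8, 13 at day 14 and 8 at day 21, beside 31.7%, 15.8% and 17.2% of all genes tested. The list medians were 1.08, 2.62 and 1.53. The summed level of the list was 40420 and 38310 in WT and Het replicate 1 at day 8 against 6717 to 31290 in the others, 31560 and 31040 against 3718 to 20340 at day 14, and 12350 and 11840 against 2856 to 10230 at day 21. The groups did not overlap on any day, and the ratio of means was 1.96, 3.32 and 2.04. The calls by day rested on single libraries. For example, the count at day 14 was 1 without Het day 14 replicate 1, where the day 14 difference of *Col2a1* was 1.36 (adjusted p = 0.112, and 0.000303 with that library). At day 8 the count was 0 without Het day 8 replicate 1 and 9 without WT day 8 replicate 1, and at day 21 it was 0 without Het day 21 replicate 1.

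**Figure D2:**
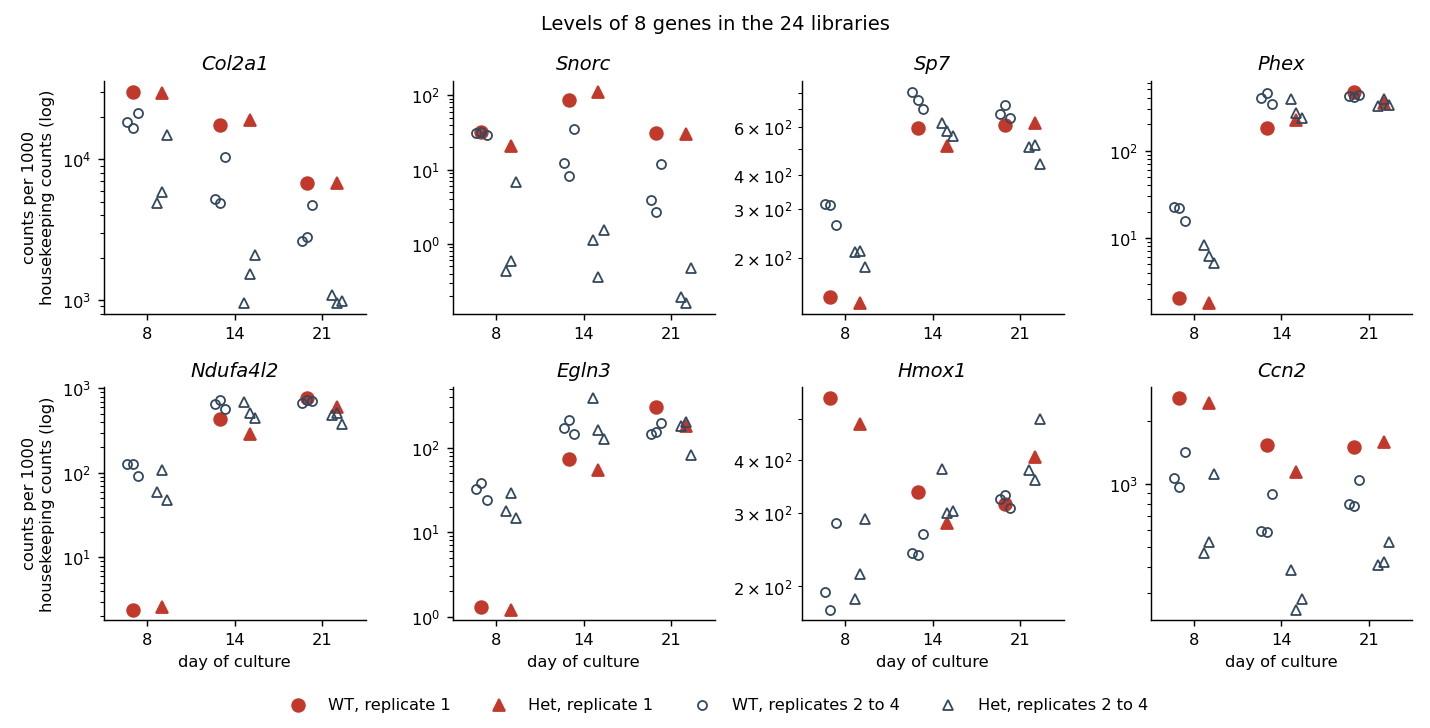
Levels of 8 genes (log y axis, counts per 1000 counts of the housekeeping scale) in the 24 libraries by day after seeding, with replicate 1 as filled red symbols and replicates 2 to 4 as open symbols (circles WT, triangles Het). *Col2a1* and *Ccn2* lay above in replicate 1 on every day, while *Ndufa4l2*, *Egln3*, *Phex* and *Sp7* lay below at day 8.

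OB genes were lower in replicate 1 at day 8 and no longer at day 21. Of all genes tested, 6.2% were lower and 31.7% higher at day 8. Those shares were 4.69% and 15.8% at day 14, and 3.23% and 17.2% at day 21. Of 14 OB lineage markers, 10 were lower and 1 higher at day 8, 6 lower and 0 higher at day 14, and 0 lower and 3 higher at day 21, with medians of -0.653, -0.353 and 0.186 (all genes 0.184, 0.0534 and 0.106). Their summed level at day 8 was 37330 and 40040 in replicate 1 and 59360 to 92080 in the others, without overlap. At day 21 it was 333600 and 299000 against 207800 to 348500, with overlap. *Col1a1* (chr11:94936224-94953042, mm10), the pro-α1(I) chain, had levels of 16700 and 17600 in replicate 1 at day 8 against 29400 to 46300 (median 37400) in the others, a difference of -1.14 ± 0.164 (adjusted p = 2.3e-05). The replicate 1 libraries were the lowest at days 8 and 14, when they had 82600 and 82700 against 97700 to 168000. At day 21 they had 130000 and 120000 against 103000 to 166000, and the difference did not pass the test (-0.164 ± 0.154, adjusted p = 0.486). *Col1a2* went the same way at day 8 (-1.1 ± 0.165, adjusted p = 3.67e-05), and so did the OB transcription factor *Sp7*, with 143 and 136 against 185 to 315 (-0.803 ± 0.122, adjusted p = 4.22e-05). Without WT day 8 replicate 1, 4 of the 10 OB lineage calls at day 8 were left, and without WT day 14 replicate 1, 1 of the 6 at day 14. Under the other library scales 9 to 10 markers were lower at day 8.

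Osteocyte genes had no common direction, with 4 of 10 tested higher and 4 lower over all days, and 2 lower without WT day 14 replicate 1. The shares over all genes tested were 32.9% higher and 6.83% lower. *Phex* (chrX:157162075-157415312, mm10), an endopeptidase of late OBs and osteocytes that restrains FGF23, had levels of 2.06 and 1.78 in replicate 1 at day 8 against 5.1 to 22.4 (median 12) in the others, and was lower by 2.66 on the log2 scale, with a value of -2.66 ± 0.365 (adjusted p = 1.3e-05). At day 21 it had 472 and 347 against 325 to 436, and the groups overlapped. *Mepe*, a phosphoglycoprotein of mineralizing OBs and osteocytes, went the other way from day 14 on. It had 116 and 188 in replicate 1 at day 14 against 28.1 to 57.9 in the other WT and 13.4 to 24.9 in the other Het libraries, and 484 and 459 against 191 to 301 and 33.1 to 63.8 at day 21, with no overlap and a difference over all days of 2.42 ± 0.279 (adjusted p = 3.45e-07). At day 8 *Mepe* was at or near 0 in all libraries, with levels up to 0.429.

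Mineralization genes moved in both directions at days 8 and 14, and those called at day 21 were all higher in replicate 1. The shares over all genes tested were 31.7% higher and 6.2% lower at day 8, 15.8% and 4.69% at day 14, and 17.2% and 3.23% at day 21. Of 17 mineralization genes tested, 4 were higher and 5 lower at day 8, and 4 higher and 3 lower at day 14. At day 21, 8 were higher and 0 lower, and the median was 0.367. The day 8 count of lower genes was 2 without WT day 8 replicate 1, and the day 14 count of higher genes was 2 without Het day 14 replicate 1. The day 21 count ranged from 3 to 9 under the other library scales, and it was 1 without Het day 21 replicate 1. *Mmp13*, the collagenase of mature OBs, had 11700 and 11000 in replicate 1 at day 21 against 5370 to 7780 and 2100 to 2930, a difference of 1.57 ± 0.256 (adjusted p = 0.000113) that was 0.845 without Het day 21 replicate 1 (adjusted p = 0.125). Among 27 genes of fibrillar collagen synthesis, 7 were higher and 7 lower at day 8, 3 and 8 at day 14, and 8 and 4 at day 21. These counts rested on the Het replicate 1 libraries. Without that of day 8, 4 were higher at day 8, without that of day 14, 4 were lower at day 14, and without that of day 21, 0 were higher and 1 lower at day 21. The day 21 count of higher genes was also 4 without the libraries numbered 3 or those numbered 4.

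The fold difference of replicate 1 changed between day 8 and the later days for 4.61% (936) of genes tested, 1.72% (349) being more positive later and 2.89% (587) more negative. With TMM scaling the split was 762 more positive and 284 more negative. The count of 936 was 203 without Het day 8 replicate 1, 548 without WT day 8 replicate 1 and 3419 without WT day 14 replicate 1. All 8 OB lineage markers called in this contrast were more positive later, with a list median of 0.736 against -0.0791 for all genes, and 0 of them were called without WT day 8 replicate 1 or without the libraries numbered 3. *Phex* was more positive later by 2.32 ± 0.398 (adjusted p = 0.00268), and by 1.53 (adjusted p = 0.103) without WT day 8 replicate 1. Between days 14 and 21 the fold difference changed for 1.44% (293) of genes, 1.05% (213) being more positive and 0.394% (80) more negative at day 21, with 451 and 307 under TMM. Without Het day 21 replicate 1 edgeR called 0 genes in this contrast (3484 had an unadjusted p under 0.05), without WT day 14 replicate 1 it called 3554, and DESeq2 with all libraries called 1644, so no gene is named from it.

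**Figure D3:**
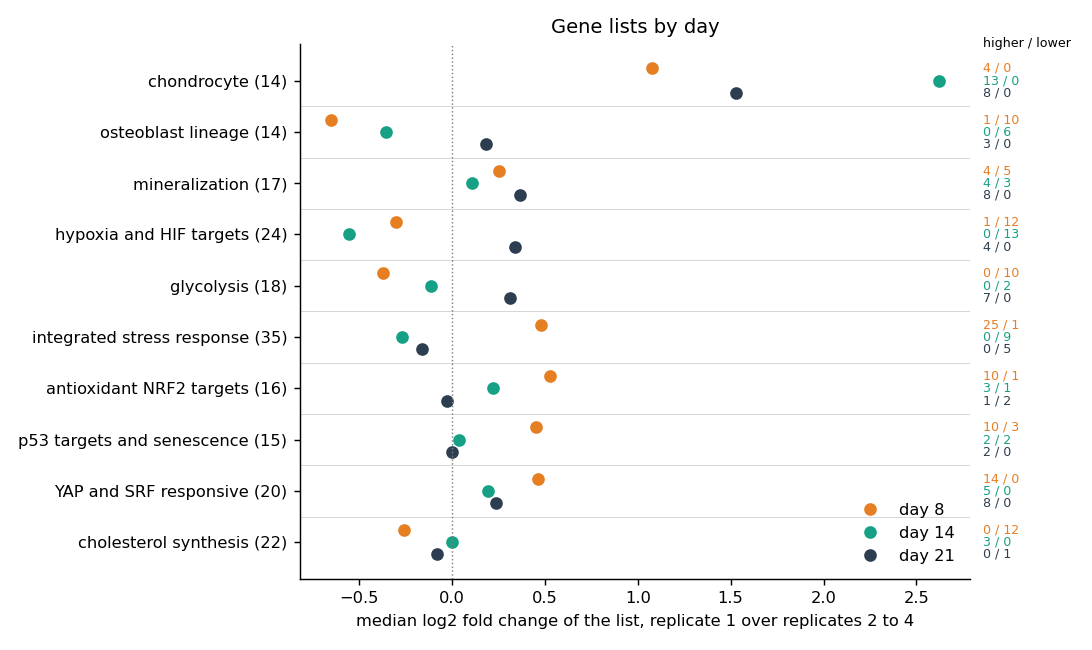
Median log2 difference between replicate 1 and replicates 2 to 4 (x axis) for 10 gene lists (y axis) at days 8, 14 and 21, with the number of members higher and lower printed at the right. The chondrocyte list lay to the right on every day, and the OB lineage, hypoxia and glycolysis lists lay left of 0 at day 8 and right of 0 at day 21.

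Several HIF targets had far lower levels in replicate 1 at day 8 than in the other libraries, and similar levels by day 21. Cells stabilize HIF when oxygen is low, which raises glucose uptake, lactate export and the enzymes that hold pyruvate back from mitochondria. *Ndufa4l2* (chr10:127514967-127517154, mm10), a HIF target of the respiratory chain, had levels of 2.4 in WT and 2.56 in Het replicate 1 at day 8, and the other 6 libraries had 47.8 to 129. It was lower by 5.19 on the log2 scale, with a value of -5.19 ± 0.37 (adjusted p = 1.14e-09). At day 14 it had 433 and 291 against 449 to 736, and at day 21 it had 769 and 596 against 384 to 727, so the groups overlapped only at day 21. The change from day 8 to the later days was 4.93 ± 0.395 (adjusted p = 1.56e-06).

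Other oxygen-regulated genes were low in the same pair of libraries. *Egln3* (chr12:54178981-54203860, mm10), a prolyl hydroxylase that is itself induced by HIF, had 1.29 and 1.21 at day 8 against 14.7 to 38.1, a difference of -4.35 ± 0.684 (adjusted p = 6.28e-05). *Ankrd37* had 0.257 and 0.142 against 3.76 to 6.51 (-4.71 ± 0.852, adjusted p = 0.000262), and *Slc16a3*, a lactate exporter, had 14.2 and 15.4 against 92.6 to 232 (-3.49 ± 0.311, adjusted p = 3.36e-08). *Pdk1*, the kinase that inhibits pyruvate dehydrogenase, had 35.5 and 37.2 against 68.6 to 115 (-1.31 ± 0.181, adjusted p = 1.39e-05). *Vegfa*, the angiogenic HIF target, did not follow them at day 8, with 102 and 105 against 83.8 to 106 (0.129 ± 0.156, adjusted p = 0.545).

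The list was mixed in size. Beside it, 6.2% of all genes tested were lower and 31.7% higher at day 8. Those shares were 4.69% and 15.8% at day 14, and 3.23% and 17.2% at day 21. The medians of all genes were 0.184, 0.0534 and 0.106 at days 8, 14 and 21. Of 24 hypoxia and HIF targets, 12 were lower and 1 higher at day 8 (median -0.302 against 0.184 for all genes), 13 lower and 0 higher at day 14 (median -0.551), and 0 lower and 4 higher at day 21 (median 0.338). Its summed level at day 8 overlapped, with 3058 and 3316 in replicate 1 against 2651 to 3561. At day 14, *Egln3* had 74.3 and 54.5 against 127 to 387 (-1.61 ± 0.406, adjusted p = 0.00722) and *Vegfa* had 248 and 222 against 322 to 607 (-0.785 ± 0.163, adjusted p = 0.00156). Without Het day 14 replicate 1 these were -1.25 (adjusted p = 0.135) and -0.601 (adjusted p = 0.0725), and 0 of the 13 list calls were left. The day 8 count of lower hypoxia and HIF targets was 4 without WT day 8 replicate 1, 7 without Het day 8 replicate 1 and 6 without the libraries numbered 3, and the day 21 count of higher ones was 1 without either replicate 1 library of that day. Of 18 glycolysis genes, 10 were lower at day 8, 2 were lower at day 14 and 7 were higher at day 21, with 0 in the other direction each time and medians of -0.37, -0.113 and 0.311. The day 8 count was 2 without WT day 8 replicate 1 and 5 without Het day 8 replicate 1, and the day 21 count was 1 without either replicate 1 library of that day.

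Stress response genes were higher in replicate 1 at day 8. The integrated stress response (ISR) is run by the transcription factor ATF4, which raises amino acid synthesis, transport and tRNA charging. Of 35 ISR genes, 25 were higher and 1 lower at day 8 (median 0.48), 0 higher and 9 lower at day 14 (median -0.271), and 0 higher and 5 lower at day 21 (median -0.159). The shares over all genes tested were 31.7% higher and 6.2% lower at day 8, 15.8% and 4.69% at day 14, and 17.2% and 3.23% at day 21. Their medians were 0.184, 0.0534 and 0.106, and -0.0506 at day 8 on the TMM scale. *Atf4* (chr15:80255184-80257541, mm10) had 456 and 462 in replicate 1 at day 8 against 252 to 323 in the others (0.657 ± 0.115, adjusted p = 0.000187), and *Asns*, asparagine synthetase, had 161 and 167 against 83 to 122 (0.718 ± 0.149, adjusted p = 0.000935). The summed ISR level at day 8 was 4834 and 4793 against 3227 to 3764, without overlap. At day 14 it was 6585 and 7296 against 6459 to 6916 in the other WT and 8898 to 11640 in the other Het libraries, so only Het replicate 1 lay below its own genotype.

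The day 14 ISR calls rested on 1 library. Their count was 0 without Het day 14 replicate 1, 23 without WT day 14 replicate 1 and 4 without the libraries numbered 3. The fold difference was more negative at the later days than at day 8 for 20 and more positive for 1 of the 35 ISR genes (median -0.645). That count of 20 was 7 without the libraries numbered 3, 12 without those numbered 2, 11 without WT day 8 replicate 1 and 13 without Het day 8 replicate 1. The day 21 count of 5 was 1 without WT day 21 replicate 1, 2 without Het day 21 replicate 1 and 8 without either replicate 1 library of day 14. The day 8 ISR count was 15 to 26 under the other library scales and 15 without WT day 8 replicate 1.

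Antioxidant and p53 target genes were higher at day 8 as well, when 31.7% of all genes tested were higher and 6.2% lower. Those shares were 15.8% and 4.69% at day 14, and 17.2% and 3.23% at day 21. Of 16 targets of NRF2, the factor that answers oxidative and electrophilic stress, 10 were higher and 1 lower at day 8, 3 and 1 at day 14, and 1 and 2 at day 21. *Hmox1* (chr8:75093621-75100589, mm10), heme oxygenase 1, had 562 and 487 in replicate 1 at day 8 against 176 to 290 (1.23 ± 0.17, adjusted p = 1.43e-05), and 335 and 284 against 238 to 380 at day 14, where the groups overlapped. *Nqo1*, a quinone reductase, was higher on every day, with 214 and 201 against 81.6 to 123 at day 8, 83.9 and 74 against 33.9 to 58.6 at day 14, and 63.9 and 74 against 35.9 to 51.9 at day 21 (all days 0.886 ± 0.0934, adjusted p = 8.68e-08). Of 15 p53 and senescence genes, 10 were higher and 3 lower at day 8, 2 and 2 at day 14, and 2 and 0 at day 21. *Cdkn1a*, the cell cycle inhibitor p21, had 765 and 718 against 368 to 497 at day 8 (0.769 ± 0.0909, adjusted p = 1.95e-06), and *Mdm2*, which degrades p53, had 171 and 174 against 92.7 to 131 (0.673 ± 0.103, adjusted p = 4.72e-05). *Ccng1*, another p53 target, was higher over all days by 0.535 ± 0.0783 (adjusted p = 1.12e-05).

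Genes that answer matrix stiffness and actin tension through YAP and SRF were higher in replicate 1, 15 of 20 over all days with 0 lower and a median of 0.255, and from 8 to 19 under the other library scales. By day, 14, 5 and 8 of them were higher at days 8, 14 and 21, and 8, 1 and 2 without the Het replicate 1 library of the same day. The shares higher over all genes tested were 32.9% over all days (median 0.111), and 31.7%, 15.8% and 17.2% at days 8, 14 and 21. *Ccn2* (chr10:24595442-24598683, mm10), connective tissue growth factor, had 2580 and 2440 in replicate 1 at day 8 against 465 to 1420, 1540 and 1140 against 249 to 895 at day 14, and 1500 and 1580 against 410 to 1040 at day 21. Replicate 1 was highest in every condition, and the difference over all days was 1.46 ± 0.158 (adjusted p = 1.25e-07). *Ccn1*, the related matricellular protein, was higher by 0.702 ± 0.0803 (adjusted p = 3.21e-07). *Ccn2* is also made by chondrocytes. Cholesterol synthesis genes had 12 of 22 lower and 0 higher at day 8, with a median of -0.255 against 0.184 for all genes. At day 14, 3 were higher, and at day 21, 1 was lower. The shares lower over all genes tested were 6.2%, 4.69% and 3.23% at days 8, 14 and 21. *Sqle*, squalene epoxidase, had 151 and 156 at day 8 against 194 to 241 (-0.529 ± 0.0738, adjusted p = 1.57e-05). The day 8 count for cholesterol synthesis ranged from 6 to 18 under the other scales and was 6 without WT day 8 replicate 1.

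Markers of other non-osteoblast lineages were called in part. Their counts here are over all days, beside 32.9% higher and 6.83% lower of all genes tested. Of 10 Schwann cell and glia markers, 6 were higher and 0 lower over all days (median 0.719). *S100b*, which glia share with chondrocytes, had 250 and 239 in replicate 1 at day 8 against 183 to 192 and 47.9 to 104, and was higher over all days by 1.58 ± 0.22 (adjusted p = 5.57e-06). *Cdh19*, a glial cadherin, was higher by 2.11 ± 0.341 (adjusted p = 3.8e-05), and *Sox10*, the neural crest and glial factor, by 2.96 ± 0.451 (adjusted p = 1.85e-05), but its levels were at most 1.47 in replicate 1 and 0.231 in the others. Endothelial markers had 5 of 9 higher and 2 lower (3 higher without Het day 21 replicate 1), adipocyte markers 5 of 11 higher and 1 lower, and osteoclast markers 2 of 13 higher and 1 lower. Of 13 fibroblast markers, 3 were higher and 5 lower with a median of -0.627, and their summed levels overlapped on every day. Of 10 tendon and suture fibroblast markers, 4 were higher and 1 lower (median 0.206). Their summed level was 8651 and 10340 in WT and Het replicate 1 at day 14 against 4126 to 7726 in the others. At day 21 it was 10060 and 11820 against 3840 to 9862, without overlap on either day. The ratio of replicate 1 to the others at days 14 and 21 was 1.16 and 1.03 in WT. In Het it was 2.06 and 2.12. Of 12 smooth muscle and myofibroblast markers, 5 were higher and 2 lower (median 0.193), a split that was 3 and 3 with TMM scaling. Their summed level was 9181 and 9754 at day 21 against 5932 to 6703, without overlap. Only 3 of 11 lymphocyte and 1 of 9 erythroid markers had enough counts to be tested, and 0 of these passed over all days. *Tnfsf11*, the osteoclast-inducing ligand RANKL, had 25.3 and 18.5 in replicate 1 at day 21 against 11.3 to 14.5 and 2.88 to 3.73 (1.8 ± 0.233, adjusted p = 5.72e-06), and 1.01 without Het day 21 replicate 1.

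Secreted signals of the bone morphogenetic protein (BMP), Wnt and IGF pathways moved in both directions. In the BMP and TGF-beta list 10 of 25 genes were higher and 6 lower over all days, beside 32.9% higher and 6.83% lower of all genes tested. *Bmp7* had 79.9 and 69.2 in replicate 1 at day 8 against 11.4 to 34.4 in the others, and was higher over all days by 1.69 ± 0.224 (adjusted p = 3.01e-06), as was *Bmp5* by 1.47 ± 0.148 (adjusted p = 4.02e-08). *Bmp4* had 24.2 and 17.8 at day 8 against 52.7 to 77.3, and was lower by 1.63 on the log2 scale, with a value of -1.63 ± 0.177 (adjusted p = 5.82e-07). *Bmp3*, an antagonist of osteogenic BMPs made by OBs, was lower over all days (-1.05 ± 0.146, adjusted p = 5.68e-06).

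Of 28 Wnt pathway genes, 6 were higher and 7 lower over all days, beside 32.9% higher and 6.83% lower of all genes tested. *Sfrp2*, a secreted modulator of Wnt signalling, had 17.2 and 12.5 in replicate 1 at day 8 against 174 to 376 (-4.12 ± 0.621, adjusted p = 3.84e-05), 168 and 54.6 against 185 to 555 at day 14, and 209 and 185 against 203 to 652 at day 21. It was the lowest library of its own condition in all 6 cases. *Notum*, which inactivates Wnt ligands, was higher by 1.18 ± 0.137 (adjusted p = 4.32e-07) and *Sfrp4* by 1.03 ± 0.122 (adjusted p = 5.55e-07). *Dkk2* was lower (-1.47 ± 0.353, adjusted p = 0.00223) and *Lef1*, a nuclear Wnt effector, higher (0.849 ± 0.181, adjusted p = 0.000775), and both calls were lost in WT libraries alone. Of 16 IGF genes, 7 were lower and 2 higher at day 8, beside 6.2% lower and 31.7% higher of all genes tested. *Igf1* (chr10:87858265-87937042, mm10) had 30.9 and 21.1 in replicate 1 at day 8 against 88.5 to 161 (-2.21 ± 0.352, adjusted p = 7.04e-05). *Igfbp3*, its main binding protein, was lower over all days (-1.15 ± 0.224, adjusted p = 0.000309). In WT libraries alone *Igf1* and *Igfbp3* did not pass over all days.

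Some genes were below every other library in all 6 conditions. *Adamts8* (chr9:30942562-30963838, mm10), a secreted metalloprotease, had 0 and 0.0712 in replicate 1 at day 8 against 0.965 to 3.35, 0.548 and 0.793 against 2.1 to 8.65 at day 14, and 0.0945 and 0.495 against 1.81 to 9.06 at day 21 (all days -3.53 ± 0.368, adjusted p = 7.13e-08). *Hmcn1*, the basement membrane protein hemicentin, had 2.92 and 2.99 against 25.8 to 64.1 at day 8, 14.4 and 15.3 against 21.5 to 58.4 at day 14, and 6.9 and 5.94 against 17.3 to 45.6 at day 21 (-2.22 ± 0.283, adjusted p = 1.59e-06). *Gfra2*, a receptor for the GDNF family ligand neurturin, had 3.43 and 3.2 against 29.5 to 56.4 at day 8 and 17.7 and 20.1 against 50.6 to 116 at day 21 (-2.17 ± 0.291, adjusted p = 3.58e-06).

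The same group held *Lgi2*, *Aldh1a2*, *Tspan8*, *Egfl6*, *Clec4e* and *Ostn*, with differences over all days from -3.05 for *Ostn* to -1.99 for *Lgi2*. *Aldh1a2* (chr9:71215789-71296243, mm10), which makes retinoic acid and marks meninges, had 0.473 and 1.48 in replicate 1 at day 21 against 1.69 to 2.49 in the other WT and 8.95 to 16.6 in the other Het libraries. *Ostn*, the secreted peptide osteocrin, had 0 and 2.61 at day 14 against 0.178 to 0.309 in the other WT and 8.6 to 41.9 in the other Het libraries. WT and Het thus lay far apart, and replicate 1 lay below within each. The WT levels were all at or near 0, where the order of the libraries says little. *Pcp4*, a calmodulin regulator, had 0 counts in both replicate 1 libraries of day 8 against 14 to 20 counts in the others, at least 2.62-fold lower when 3 counts per library are taken as the floor. *A2m* (2.86), which is outside the complement and acute phase list, was above all other libraries in every condition. It also differed between genotypes (Het minus WT 2.34). The list members *Hp* (2.3) and *C4b* (1.9) were above in every condition too. *Saa3*, another member, went the other way at day 14 (-2.25 ± 0.578, adjusted p = 0.00849). In the list of complement and acute phase genes as a whole 4 of 11 were higher and 2 lower, beside 32.9% and 6.83% of all genes tested.

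**Figure D4:**
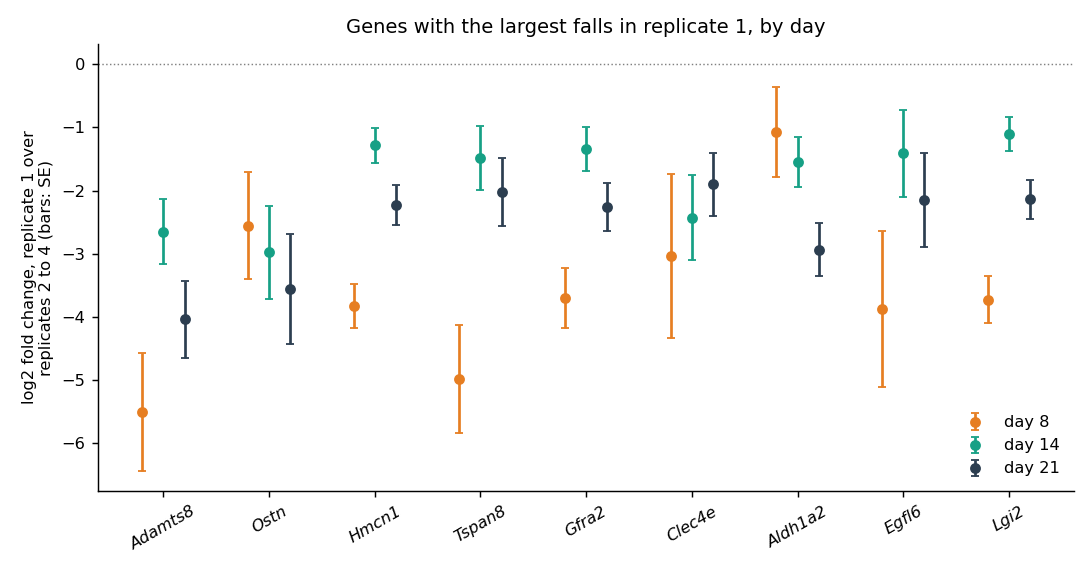
Log2 difference between replicate 1 and replicates 2 to 4 ± SE (y axis) at days 8, 14 and 21 for 9 genes that lay below all other libraries in every condition. *Hmcn1*, *Gfra2* and *Lgi2* had values of -3.83, -3.7 and -3.73 at day 8 and of -1.28, -1.34 and -1.1 at day 14.

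The difference between replicate 1 and the others itself differed between genotypes for 5.79% (1174) of genes tested, 2.57% (521) being more positive in Het and 3.22% (653) more negative, and TMM scaling gave 460 and 889. The count of 1174 was 431 without WT day 14 replicate 1, 766 without Het day 14 replicate 1 and 1848 without Het day 8 replicate 1. Over all days, 5564 of 19159 genes tested were higher and 1200 lower in WT libraries alone. In Het libraries alone 3265 of 18858 were higher and 1117 lower. Macrophage genes were the clearest case. Over both genotypes 1 of 19 macrophage markers was higher and 1 lower, but 14 were higher and 0 lower in WT libraries alone, 0 higher and 18 lower in Het libraries alone, and 18 of 19 differed between genotypes with a median of -1.7 against 0.0128 for all genes. The count of 18 ranged from 16 to 18 when any library was left out. The summed level was 547.7 in WT and 464.9 in Het replicate 1 at day 8, 5762 and 4016 at day 14, and 8070 and 10280 at day 21. In replicates 2 to 4 it was 278.7 to 339.7 in WT and 906.1 to 1258 in Het at day 8, 1810 to 3098 and 8617 to 9254 at day 14, and 7796 to 9028 and 14170 to 22440 at day 21. Het was thus above WT in replicates 2 to 4 by 3.6, 3.77 and 2.03 times at days 8, 14 and 21, whereas the ratio of Het to WT in replicate 1 was 0.849, 0.697 and 1.27.

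Single macrophage genes had the same order. *Lyz2*, lysozyme, had 2860 and 1790 in WT and Het replicate 1 at day 14 against 858 to 1460 in the other WT and 4370 to 4800 in the other Het libraries, and the difference between genotypes was -1.9 ± 0.301 (adjusted p = 0.00136). *C1qa*, the complement component, had 244 and 201 against 75.5 to 137 and 369 to 400 (-1.8 ± 0.316, adjusted p = 0.00259). *Adgre1*, the F4/80 antigen (-1.59 ± 0.267, adjusted p = 0.00198), *Cd68* (-1.54 ± 0.26, adjusted p = 0.00206) and *Ptprc*, the pan-leukocyte antigen CD45 (-1.6 ± 0.246, adjusted p = 0.00113), followed. At day 14 replicate 1 of either genotype lay between the other WT and the other Het libraries for *Lyz2* and *C1qa*.

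In the contrast between genotypes, interferon-stimulated and inflammatory genes went the same way as the macrophage markers. The part of the macrophages in them was not tested. Their summed levels did not always move with the macrophage list. In Het at day 8 the chemokine and cytokine list had 1127 in replicate 1 against 755.1 to 904.7 in the others. The macrophage list was lower there. In WT at day 21 the interferon-stimulated list had 2980 against 2272 to 2402, while the macrophage list lay within the range of the others. Of 25 interferon-stimulated genes, 18 were more negative in Het and 0 more positive (median -1.37). Of the 25, 17 were higher in WT libraries alone and 16 lower in Het libraries alone. Among all genes tested, 5564 of 19159 were higher in WT libraries alone, and 1117 of 18858 were lower in Het libraries alone. Between genotypes 3.22% of all genes tested were more negative in Het and 2.57% more positive. The count of 18 was 7 without WT day 14 replicate 1, 8 without Het day 14 replicate 1, 9 without the libraries numbered 3 and 11 without those numbered 2. *Oasl2* had 1.46 and 1.64 in replicate 1 at day 8 against 0.888 to 1.38 in the other WT and 4.78 to 13.6 in the other Het libraries (-3.02 ± 0.565, adjusted p = 0.00384). Of 24 chemokine and cytokine genes tested, 13 were more negative in Het and 0 more positive (median -1.59). They included the monocyte attractant *Ccl2* (-1.82) and the alarmin *Il33*, which had 4.44 in WT and 0.99 in Het replicate 1 at day 21 against 2.53 to 2.86 and 6.16 to 7.36 (-3.17 ± 0.492, adjusted p = 0.00131). *Meox2*, a mesodermal homeobox gene, had 6.81 and 1.19 at day 21 against 2.54 to 6.45 and 5.73 to 11.8 (-3.52 ± 0.579, adjusted p = 0.00179).

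**Figure D5:**
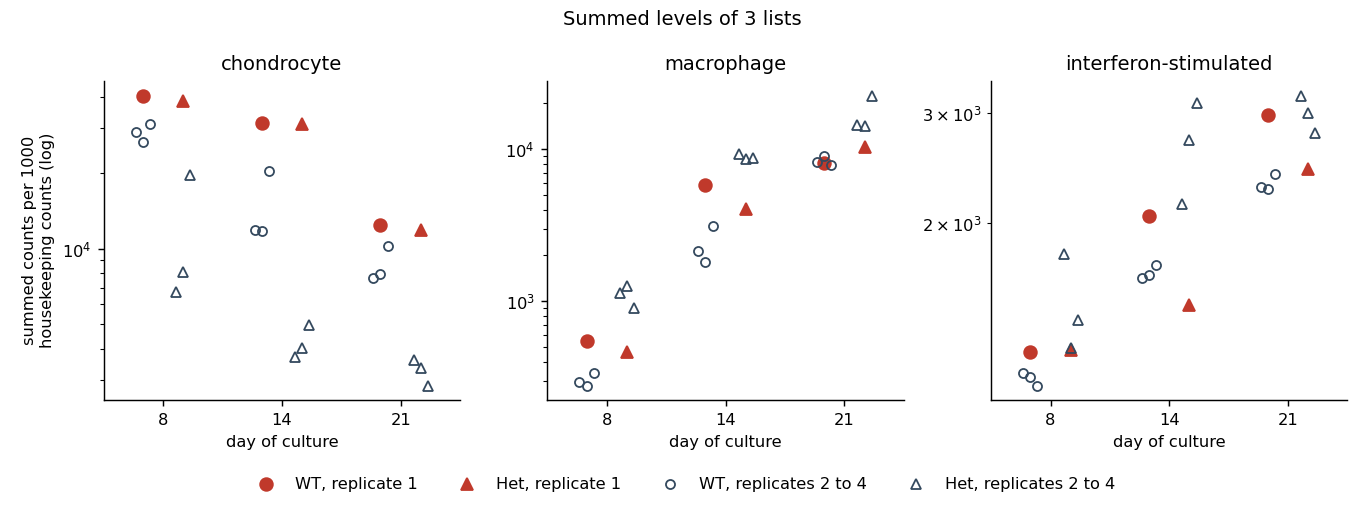
Summed levels of the chondrocyte, macrophage and interferon-stimulated lists (y axis, log scale, counts per 1000 counts of the housekeeping scale) in WT and Het libraries at days 8, 14 and 21, with replicate 1 as filled red symbols. In replicates 2 to 4 Het lay below WT for cartilage and above WT for macrophages. In replicate 1 the ratio of Het to WT was 0.948 to 0.983 for cartilage. It was 0.697 to 1.27 for macrophages and 0.722 to 1.01 for interferon-stimulated genes.

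In the ratio of Het to WT in replicates 2 to 4, cartilage genes ran opposite to macrophage genes. In WT both summed levels were higher in replicate 1 at days 8 and 14. The WT ratios of replicate 1 to the others were 1.4 and 2.15 for cartilage, and 1.8 and 2.45 for macrophages. The summed chondrocyte level of Het over WT was 0.396, 0.289 and 0.383 in replicates 2 to 4 at days 8, 14 and 21, and 0.948, 0.983 and 0.959 in replicate 1. In WT libraries alone 8 of the 14 markers were higher in replicate 1, with a median of 0.69. In Het libraries alone 14 were, with a median of 2.76. Of all genes tested, 5564 of 19159 were higher in WT libraries alone (median 0.107). In Het libraries alone 3265 of 18858 were higher (median 0.105). Between genotypes, 2.57% of all genes tested were more positive in Het and 3.22% more negative. The difference between genotypes was called for 8 of 14, a count that went to 1 without the libraries numbered 3 and to 2 without Het day 14 replicate 1 or without those numbered 2. *Chad* had 31.2 and 73.8 in WT and Het replicate 1 at day 14 against 18.6 to 21.8 and 2.7 to 7.37, with a difference between genotypes of 2.51 ± 0.479 (adjusted p = 0.0045), and *Mepe* differed by 2.1 ± 0.368 (adjusted p = 0.00259). Cell cycle genes had 29 of 35 higher in WT libraries alone and 0 in Het libraries alone, with 13 called between genotypes and a median of -0.374. That count of 13 was 1 without the libraries numbered 2 and 20 without Het day 8 replicate 1.

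Of 4 Y-linked genes, which are read only from male cells, 1 passed the test between genotypes. *Kdm5d* had 43.9 to 61.3 in the 6 replicate 1 libraries and 43.4 to 53.7 in the other WT libraries, but 20.6 to 29.3 in the other Het libraries, with no overlap for the last. The difference between genotypes was 0.712 ± 0.129 (adjusted p = 0.00327). The Y-linked genes *Ddx3y*, *Uty* and *Eif2s3y* had values of 0.427, 0.528 and 0.415 in the same contrast and did not pass (adjusted p = 0.141, 0.274 and 0.0986). How far the sex of the pups or their number moved other genes was not tested.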

How the data were processed

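PolyA RNA from 24 mouse OB cultures was made into libraries with a TrueSeq kit (Illumina) and sequenced. The authors deposited 1 table of raw read counts per gene for each library. Per the submitters' processing notes, cutadapt 2.5, STAR 2.73a and featureCounts 1.6.4 (Subread) were used with mm10, and the strand setting and the rule for reads with several matches are not given in the sources used here. Gene names, classes and positions came from GENCODE M21 (GRCm38), in which 54587 of 55335 identifiers were found. Where a symbol had several entries, the entry with most counts was used.

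Counts were scaled to the geometric mean of 4 housekeeping genes, as the study did, filtered with filterByExpr and tested with edgeR 4.0.16 (quasi-likelihood F test, R 4.3.3) with condition as covariate and a term for replicate 1 over all days (17 residual degrees of freedom), per day (15) or per genotype (16). Adjusted p-values follow Benjamini and Hochberg over all 20287 genes, with a threshold of 0.05. P-values measure only the spread between these libraries, and not that between cell preparations. Libraries of different days may come from the same pool of cells, but the tests took all libraries as independent. Since a condition has 1 replicate 1 library, it is assumed to vary like the others, also where 1 is left out of a day. Depth was 17140202 to 59734231 counts, and where a condition had 0 counts in both libraries a floor of 3 counts per library was used.

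The gene lists and the comparison were chosen with earlier results of these data known. The genes named were members of the lists, the housekeeping genes or *Col1a2*, or had the largest changes past the threshold with a mean of at least 50 counts (10 in each direction per comparison, of those outside the range of the other replicates in every condition, and 5 in each direction for differences between days and genotypes). Genes whose call was lost without 1 library were mostly left out, a choice made after the values were seen.

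Alternatives were TMM (edgeR), DESeq2 1.42.0 size factors and its Wald test, total count, housekeeping scaling without the actins, and other filters. Another was limma 3.58.1 voom with genotype and replicate number together as a random block. The rest were thinning to the smallest total, each genotype alone, protein coding genes alone, and leaving out libraries. The protein coding and the Het day 21 replicate 4 alternatives were added after seeing the data. The pipeline was tested on simulated data. Same-numbered WT and Het libraries of a day (replicates 2 to 4) had deviations that correlated by 0.0139 to 0.407 over 9 pairs (median 0.203). Differently numbered ones correlated by -0.347 to 0.181 over 18 pairs (median -0.108). The tests did not take the numbers as pairs, so a deviation shared by number was not modelled in the contrast of Het and WT. Some genes that met the naming rule are not reported here.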

Additional observations from a re-analysis of the deposited data

Results flagged for a closer look

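In a condition of 4 libraries, the highest or lowest library was singled out when its gap to the next divided by the range exceeded Dixon's critical value, which chance gives in about 1 of 20 conditions. Of 60 conditions tested over 10 measures, 14 were singled out, 13 of them through replicate 1. The share of counts in processed pseudogenes stood apart in replicate 1 of every condition, at 0.3481% (WT day 8), 0.3403% (WT day 14), 0.4167% (WT day 21), 0.3571% (Het day 8), 0.3789% (Het day 14) and 0.4574% (Het day 21). The total count of Het day 21 replicate 1 was far below its group, at 23618848. Small noncoding RNA took 2.491% of the counts in WT day 14 replicate 1 and 2.05% in Het day 21 replicate 4. The summed chondrocyte level was far above its group in Het day 14 replicate 1 (31040) and Het day 21 replicate 1 (11840). The summed macrophage level was far below its group in Het day 14 replicate 1 (4016). The summed Schwann and glia level stood out in WT day 8 replicate 1 (476.3) and the endothelium level in Het day 14 replicate 1 (313.4).

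Other genes were singled out because the difference between replicate 1 and the others itself differed between days or genotypes, by the interaction contrast of the fit (log2 scale, edgeR). From day 8 to the later days *Phex* changed by 2.32 and *Ndufa4l2* by 4.93. Het minus WT was 2.51 for *Chad*, 2.1 for *Mepe* and 0.712 for *Kdm5d*. It was -3.52 for *Meox2*, -3.17 for *Il33*, -3.02 for *Oasl2* and -1.82 for *Ccl2*. Among macrophage genes it was -1.9 for *Lyz2*, -1.8 for *C1qa*, -1.6 for *Ptprc*, -1.59 for *Adgre1* and -1.54 for *Cd68*.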

How the results depend on the processing

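Counts of genes called moved by more than 1.5 times under several alternatives. With libraries thinned to the smallest total, 5327 genes were called over all days, 4662 at day 8, 2159 at day 14, 2130 at day 21, 446 for the later days against day 8, 100 for day 21 against day 14 and 606 for Het against WT. In Het libraries alone the counts were 4382 over all days, 4350 at day 8, 1888 at day 21 and 94 for the later days against day 8. Protein coding genes alone gave 2467 at day 14 and 2389 at day 21, and housekeeping scaling without the actins gave 6406 at day 21. DESeq2's test gave 1451 for the later days against day 8, 1644 for day 21 against day 14 and 1836 for Het against WT. Day 21 against day 14 also gave 575 with no filter, 752 with DESeq2 size factors, 758 with TMM, 1133 with total count and 763 without the actins.

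Leaving out libraries gave 6379 to 9620 genes over all days, 2966 to 8775 at day 8, 2502 to 5680 at day 14, 1521 to 5204 at day 21, 110 to 3419 for the later days against day 8, 0 to 3554 for day 21 against day 14 and 329 to 1848 for Het against WT. The lowest count at day 14 and for the later days against day 8 came without the libraries numbered 3, and for Het against WT without those numbered 2. With genotype and replicate number together as a random block (limma voom), Het against WT gave 2766 genes, and the main edgeR test gave 1174. The correlation within blocks in that fit was -0.177. Voom was not run without the block, so the effect of the block cannot be told from that of the method. The other counts under the block were 8565 over all days, 7394, 3745 and 3841 at days 8, 14 and 21, 642 for the later days against day 8 and 223 for day 21 against day 14. Of 1991 values of named genes under the alternatives, 1975 kept their direction and their side of the threshold, 16 lost the call and 0 turned direction. Most named genes had been kept because their call held without any 1 library, so this tally is no measure of stability. The cause of these moves was not tested, except that thinning lowers the counts and that left-out libraries reduce the number of samples.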
